A study of Mus musculus with 3 samples.

Results

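The miR-10, miR-99 and miR-100 family was followed in developing mouse retina through 8 mature forms taken by name from the 1915 miRNAs listed: mmu-miR-99a-5p, mmu-miR-99a-3p, mmu-miR-99b-5p, mmu-miR-99b-3p, mmu-miR-100-5p, mmu-miR-100-3p, mmu-miR-10a-5p and mmu-miR-10b-5p. The rule used no measured value. Small RNAs were sequenced from retinas of C57BL/6 mice at postnatal day 1 (P1), 7 (P7) and 17 (P17), with no treatment or genetic change named in the labels. Each age had 1 library, made from the retinas of 5 pooled eyes, so no difference between ages could be set against a spread between replicates. The comparison of ages asked which miRNAs change as the retina and its vessels mature. The libraries held 11426320, 12759995 and 11659722 miRNA reads at P1, P7 and P17, and levels are given in RPM, the reads a form would have in a library of 1000000 miRNA reads. One read was worth 0.0875, 0.0784 and 0.0858 RPM, and 3 reads, the smallest level taken as measurable, equalled 0.263, 0.235 and 0.257 RPM. The 95% intervals below account for counting error alone and leave out differences between animals and libraries. The PCR copies of a molecule were not marked, so reads are not independent. The intervals may therefore be too narrow even for counting error.

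A miRNA guides silencing proteins to messenger RNAs that pair with its seed, the bases near its 5′ end, and forms with the same seed are expected to share many targets. The miR-10 genes lie inside the Hox clusters, which pattern the body axis, whereas the miR-99 and miR-100 genes lie in clusters with a let-7 and a miR-125 gene. Known targets of the miR-99 and miR-100 group include the growth regulators mTOR and the IGF1 receptor. Each hairpin precursor has a 5p and a 3p arm, and usually one of them is kept far more often than the other.

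Mature sequences of 8 of 8 members were found in RefSeq (GRCm38.p6). The 5p sequences are shown because they fall into 2 seed groups and differ by very few bases within a group. Capitals mark the seed, bases 2 to 8.
mmu-miR-99a-5p: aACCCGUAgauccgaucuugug
mmu-miR-99b-5p: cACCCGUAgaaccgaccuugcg
mmu-miR-100-5p: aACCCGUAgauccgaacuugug
mmu-miR-10a-5p: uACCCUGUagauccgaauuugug
mmu-miR-10b-5p: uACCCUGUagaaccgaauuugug

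The seed ACCCGUA was held by 3 of the listed miRNAs with a RefSeq sequence, all of them members, and ACCCUGU by 2, also members. With positions counted from 1 at the 5′ end, mmu-miR-99a-5p and mmu-miR-100-5p differ by the substitution U16A alone, and mmu-miR-10a-5p and mmu-miR-10b-5p by U12A alone. From mmu-miR-99a-5p to mmu-miR-99b-5p there are 4 substitutions, A1C, U11A, U16C and U21C, none of them in the seed. Reads of forms that differ by 1 base can be split or exchanged by alignment with mismatches, and whether this happened in the 2 close pairs was not tested; their summed levels are given below beside the separate ones. The 3p sequences, shown because their levels are compared with the 5p levels below, carry other seeds, one of them common to the miR-99a and miR-99b arms.
mmu-miR-99a-3p: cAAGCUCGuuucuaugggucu
mmu-miR-99b-3p: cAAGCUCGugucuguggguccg
mmu-miR-100-3p: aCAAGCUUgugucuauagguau

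The 3 genes of the miR-99 and miR-100 group lie on different chromosomes, all on the plus strand of GRCm38 (mm10). Mir99a is at chr16:77598936-77599000 in an intron of the non-coding gene Mir99ahg and opposite an intron of Gm11146, 721 bases from the start of Mirlet7c-1 and 47337 bases from that of Mir125b-2. Mir99b is at chr17:17830188-17830257 in an intron of Spaca6, 164 bases from Mirlet7e and 624 bases from Mir125a. Mir100 is at chr9:41531425-41531504 in an intron of the non-coding gene 3110039I08Rik and opposite an exon of Gm48742, 5291 bases from Mirlet7a-2 and 50501 bases from Mir125b-1. Mir10a is at chr11:96317165-96317274, 993 bases from Hoxb4, and Mir10b is at chr2:74726070-74726137 in an intron of Hoxd3 and Hoxd4. The hairpins of Mir99a and Mir100 are shown, with both mature arms in capitals, because each gave almost all of its reads from the first arm.
Mir99a: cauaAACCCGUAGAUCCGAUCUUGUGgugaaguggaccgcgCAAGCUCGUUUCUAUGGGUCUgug
Mir100: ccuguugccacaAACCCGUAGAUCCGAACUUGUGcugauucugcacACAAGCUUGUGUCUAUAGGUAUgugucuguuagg

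The members moved apart with age. The most abundant form, mmu-miR-99a-5p, was higher at each later age, mmu-miR-100-5p was higher at P17, and mmu-miR-99b-5p was lower at each later age although it carries the same seed. Both miR-10 forms were lower at P7 and P17 than at P1. A change was called when it was over 2-fold on the log2(RPM + 1) scale among the 648 miRNAs that averaged 1 RPM or more over the libraries, which 7 of the 8 members reached; mmu-miR-100-3p did not. This scale understates the change of rare forms.

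**Figure D1:**
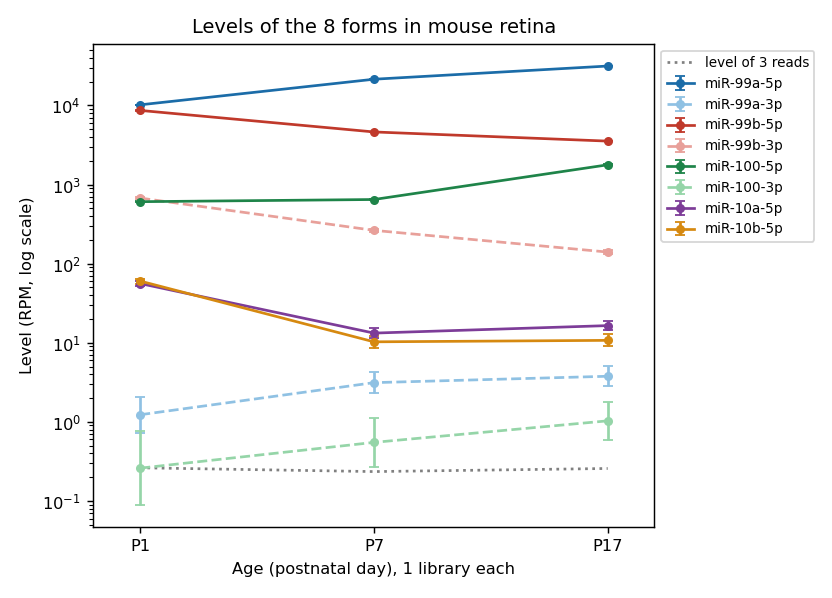
Level of each of the 8 forms (RPM, log axis) in the P1, P7 and P17 libraries, with 95% Wilson intervals; solid lines are 5p forms, dashed lines 3p forms, and the dotted line is the level of 3 reads. The levels span from 31477 RPM for miR-99a-5p at P17 to 0.26 RPM for miR-100-3p at P1, and miR-99a-5p and miR-99b-5p start close together and separate.

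From P1 to P7, 3 of the 7 members past the filter were lower by over 2-fold and 1 was higher. Of all 648 miRNAs tested, 44.8% fell past the criterion and 3.09% exceeded it upwards in that comparison, so lower members were about as frequent as lower miRNAs in general. From P7 to P17, 0 members were lower and 1 was higher, against 11.6% and 14.0% of all. From P1 to P17, 4 members were lower and 3 higher, against 46.8% and 10.5% of all, and with 7 forms such counts are a description only. The median log2 change of these 7 from P1 to P17 was -1.29, beside -0.91 for all 648. RPM is a share of the library, and most miRNAs had lower RPM after P1. When libraries were scaled by median-of-ratios size factors, which set the typical miRNA near no change, 2 members were lower and 3 higher from P1 to P17, against 23.9% and 25.5% of all. Values relative to the median of all miRNAs are therefore given beside the main changes of the members past the filter.

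mmu-miR-99a-5p was measured at 10179 RPM in the P1 library, 21442 in the P7 library and 31477 in the P17 library. It was thus the 19th, 10th and 8th most abundant miRNA of the respective libraries and took 1.02%, 2.14% and 3.15% of their reads. The level at P7 was 2.11-fold that at P1 (2.09 to 2.12), and at P17 it was 3.09-fold that at P1 (3.07 to 3.11). The step from P7 to P17 was smaller, 1.47-fold (1.46 to 1.48), and did not reach the criterion. Relative to the median of all miRNAs, the log2 change from P1 to P17 was 2.54.

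mmu-miR-100-5p, the form that differs from it by 1 base, had another time course. Its levels were 607 (P1), 647 (P7) and 1776 RPM (P17). The first step was 1.07-fold (1.03 to 1.10) and the second 2.75-fold (2.68 to 2.82), so that the P17 library alone stood high. Over the whole period the change was 2.93-fold (2.85 to 3.01), close to that of mmu-miR-99a-5p, and 2.46 on the log2 scale relative to the median. Summed with mmu-miR-99a-5p, as if the 2 forms could not be told apart, the forms had log2 changes of 1.03 in the first step and 0.59 in the second, so the call of mmu-miR-100-5p from P7 to P17, the only one among the members in that step, rests on counting the forms apart. The near-constant level from P1 to P7 depended on the scaling: relative to the median of all miRNAs, the log2 change of that step was 0.96.

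mmu-miR-99b-5p went the other way, with 8650 (P1), 4622 (P7) and 3540 RPM (P17). The level was 2.44-fold lower at P17 than at P1 (2.42 to 2.47), and its rank fell from 23 to 35. The step from P1 to P7, 1.87-fold lower, was nearly that of the typical miRNA, with a log2 change of -0.04 relative to the median of all. That step changed sign under 2 other scalings, to a log2 change of 0.06 with median-of-ratios factors and 0.08 with TMM factors. Over P1 to P17 the log2 change was -1.29 in RPM and -0.38 relative to the median of all.

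mmu-miR-10a-5p and mmu-miR-10b-5p were rare forms, and both dropped early. mmu-miR-10a-5p had 640, 169 and 192 reads, which were 56.0 (P1), 13.2 (P7) and 16.5 RPM (P17). mmu-miR-10b-5p had 688, 131 and 125 reads, which were 60.2, 10.3 and 10.7 RPM. The P1 library was far above the other libraries for both forms, and their P7 and P17 levels were close to each other. From P1 to P7 mmu-miR-10a-5p was 4.23-fold lower (3.56 to 5.04) and mmu-miR-10b-5p 5.86-fold lower (4.86 to 7.12). From P7 to P17 the ratio was 1.24 (1.01 to 1.54) for the first and 1.04 (0.811 to 1.34) for the second, and counting error alone covers no change in mmu-miR-10b-5p. Relative to the median of all miRNAs, the log2 changes from P1 to P7 were -1.13 and -1.57, at the 8.49th and 2.47th percentile of the 648 miRNAs. Summed, the pair fell from 116 RPM at P1 to 23.5 RPM at P7, 4.94-fold (4.36 to 5.62), and stood at 27.2 RPM at P17.

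The 5 5p forms summed to 19552 (P1), 26734 (P7) and 36820 RPM (P17), and the sum was higher at each later age with mmu-miR-99a-5p as its main part. The share of mmu-miR-99a-5p among these reads was 52.1% (P1), 80.2% (P7) and 85.5% (P17). The share of mmu-miR-99b-5p was 44.2%, 17.3% and 9.61%. At P1 the reads with the seed ACCCGUA thus came in similar parts from these 2 forms, and at P17 mainly from mmu-miR-99a-5p. Whether shares of reads equal shares of molecules was not tested. mmu-miR-100-5p supplied 3.10%, 2.42% and 4.82%. The miR-10 forms were minor throughout, with 0.286%, 0.0495% and 0.0447% for mmu-miR-10a-5p and 0.308%, 0.0384% and 0.0291% for mmu-miR-10b-5p.

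**Figure D2:**
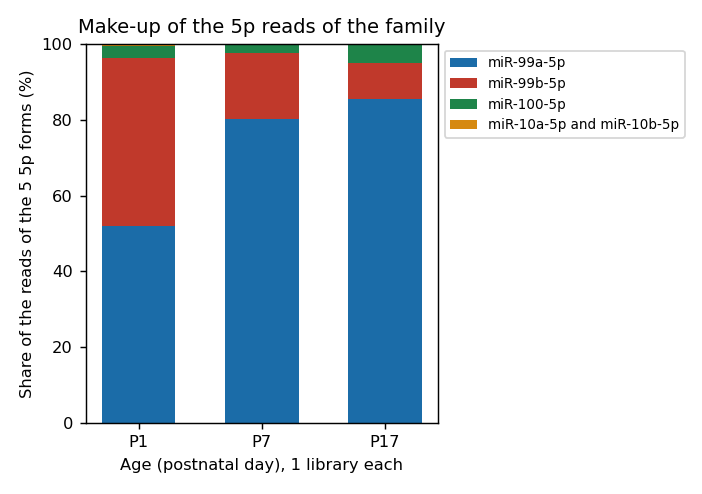
Share (%) of the summed reads of the 5 5p forms taken by each form in the P1, P7 and P17 libraries; each bar adds up to all of them. The share of miR-99a-5p is 52.1%, 80.2% and 85.5%, that of miR-99b-5p 44.2%, 17.3% and 9.61%, and the miR-10 forms are too rare to see.

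Ratios of 2 forms within a library do not depend on how libraries are scaled, and they kept these differences. The log2 ratio of mmu-miR-99a-5p to mmu-miR-99b-5p was 0.23 (P1), 2.21 (P7) and 3.15 (P17), a change of 2.92 (2.90 to 2.94). For mmu-miR-100-5p to mmu-miR-99b-5p the log2 ratio was -3.83, -2.84 and -0.995, a change of 2.84 (2.79 to 2.88). Both forms therefore gained on mmu-miR-99b-5p in each step. Between mmu-miR-99a-5p and mmu-miR-100-5p the log2 ratio was 4.07, 5.05 and 4.15, so it was higher at P7 and differed between P1 and P17 by 0.08 (0.04 to 0.12). Within the miR-10 pair the log2 ratio of mmu-miR-10a-5p to mmu-miR-10b-5p was -0.10 (-0.26 to 0.05) at P1, 0.37 (0.03 to 0.71) at P7 and 0.62 (0.29 to 0.96) at P17. The change from P1 to P17 was 0.72 (0.35 to 1.10), larger than counting error if reads were independent. That from P7 to P17 was 0.25 (-0.23 to 0.73), which was not.

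The 3p arms followed their 5p arms in direction. mmu-miR-99a-3p had 14, 40 and 44 reads, or 1.23, 3.13 and 3.77 RPM, and was 3.08-fold higher at P17 than at P1 (1.66 to 6.09), with a log2 change of 2.01 relative to the median of all. mmu-miR-100-3p had 3, 7 and 12 reads, or 0.26, 0.55 and 1.03 RPM, a ratio of 3.92 (1.06 to 21.6) that rests on 3 reads at P1. These 2 arms were thus seen near the limit of the depth, unlike their 5p arms. The log2 ratio of the 5p to the 3p arm was 13.02, 12.74 and 13.03 for miR-99a, with a change from P1 to P17 of 0.01 (-0.98 to 0.90). For miR-100 it was 11.17, 10.20 and 10.75, with a change of -0.42 (-2.89 to 1.47). Neither arm ratio changed detectably at this depth.

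The miR-99b hairpin kept a much larger part of its reads in the 3p arm, and that part became smaller. mmu-miR-99b-3p was measured at 675 (P1), 264 (P7) and 140 RPM (P17), which was 4.82-fold lower at P17 than at P1 (4.57 to 5.08), with a log2 change of -1.35 relative to the median of all miRNAs. Its share of the reads of both arms was 7.24%, 5.39% and 3.81%. The log2 ratio of mmu-miR-99b-5p to mmu-miR-99b-3p was 3.68, 4.13 and 4.66, a change of 0.98 (0.90 to 1.06). Counting error is therefore smaller than this change, but a change of this size was not unusual among hairpins. It stood at the 79.5th percentile of 190 hairpins with both arms past the filter, whose median change was 0.16 with a 5th to 95th percentile range from -1.90 to 1.77. The 3p arms of the miR-10 hairpins, which are not members, had 7, 2 and 1 reads for miR-10a-3p and 3, 1 and 0 reads for miR-10b-3p, too few for a change of the arm ratio to be measured.

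**Figure D3:**
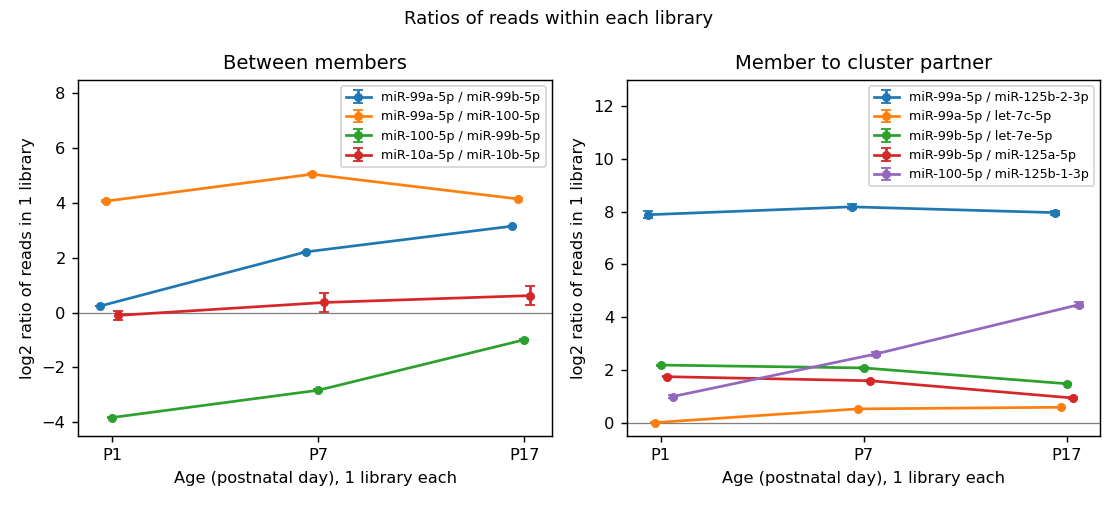
Log2 ratio of the reads of 2 forms within each library at P1, P7 and P17, between members on the left and between a member and a partner from its cluster on the right, with exact 95% binomial intervals. On the left the ratio of miR-99a-5p to miR-99b-5p climbs from 0.23 to 3.15; on the right that of miR-100-5p to miR-125b-1-3p climbs from 0.99 to 4.47 and that of miR-99a-5p to miR-125b-2-3p stays between 7.88 and 8.18.

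The cluster partners, chosen by position, were compared with each member inside the same library. Of 11 partner forms, 10 passed the filter, and from P1 to P17 3 were over 2-fold lower and 2 higher, beside 46.8% and 10.5% of all miRNAs tested. In the miR-99a cluster, miR-125b-2-3p was measured at 43.1 (P1), 73.9 (P7) and 126 RPM (P17), 2.93-fold higher at P17 (2.64 to 3.25) and at a log2 change of 2.44 relative to the median. Against it, mmu-miR-99a-5p had log2 ratios of 7.88, 8.18 and 7.96, and the change from P1 to P17 was 0.08 (-0.07 to 0.23). The 5p form and the 3p arm of the last hairpin thus kept nearly the same ratio at both ends of the period. A departure of 0.30 (0.14 to 0.46) was measured at P7. let-7c-5p, at 10177, 14960 and 21028 RPM, was higher with age too, but by less. mmu-miR-99a-5p and let-7c-5p had nearly equal reads at P1, with a log2 ratio of 0.00, and the ratio was 0.52 at P7 and 0.58 at P17. The mature sequence of let-7c-5p is also made from a second locus, and the reads of the 2 loci cannot be told apart. let-7c-1-3p, which only this cluster makes, had 47, 156 and 85 reads and stood highest at P7. The log2 ratio of mmu-miR-99a-5p to let-7c-1-3p was 11.27, 10.78 and 12.08, a change from P1 to P17 of 0.80 (0.26 to 1.33). Its ratio to miR-125b-5p, which more than 1 locus makes, changed by 1.06 (1.03 to 1.08).

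In the miR-99b cluster all 6 forms had lower RPM at P17 than at P1, as did 73.6% of the 648 miRNAs tested. Relative to the median of all, let-7e-5p and miR-125a-5p had log2 changes of 0.33 and 0.43. With median-of-ratios factors both were higher at P17, with log2 changes of 0.46 and 0.56. let-7e-5p was measured at 1907, 1099 and 1274 RPM, and miR-125a-5p at 2589, 1538 and 1853 RPM. mmu-miR-99b-5p lost ground to both between P7 and P17. Its log2 ratio to let-7e-5p was 2.18, 2.07 and 1.47, a change from P1 to P17 of -0.71 (-0.74 to -0.67), and its ratio to miR-125a-5p was 1.74, 1.59 and 0.93, a change of -0.81 (-0.84 to -0.78). Between the 2 partners the log2 ratio moved only from 0.44 to 0.54. The partners thus kept a nearly constant ratio to each other while mmu-miR-99b-5p fell relative to both.

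The forms measured from the miR-100 cluster did not all move in the same direction. miR-125b-1-3p, the only partner arm of this cluster with enough reads that is made by no other locus, was measured at 306 (P1), 106 (P7) and 80.0 RPM (P17), 3.82-fold lower (3.55 to 4.11) and at a log2 change of -1.01 relative to the median, while mmu-miR-100-5p was higher. Against it, mmu-miR-100-5p had log2 ratios of 0.99, 2.60 and 4.47, a change of 3.48 (3.37 to 3.59). Whether this 3p arm stands for its whole hairpin was not tested. The other arm made only here, let-7a-2-3p, had 5, 3 and 8 reads and did not pass the filter. let-7a-5p, at 23496, 15459 and 19752 RPM, and miR-125b-5p, at 3576, 2736 and 5322 RPM, are each made by more than 1 locus. Relative to these the log2 ratio of mmu-miR-100-5p changed by 1.80 (1.76 to 1.84) and 0.97 (0.93 to 1.02) from P1 to P17, so it gained on both.

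**Figure D4:**
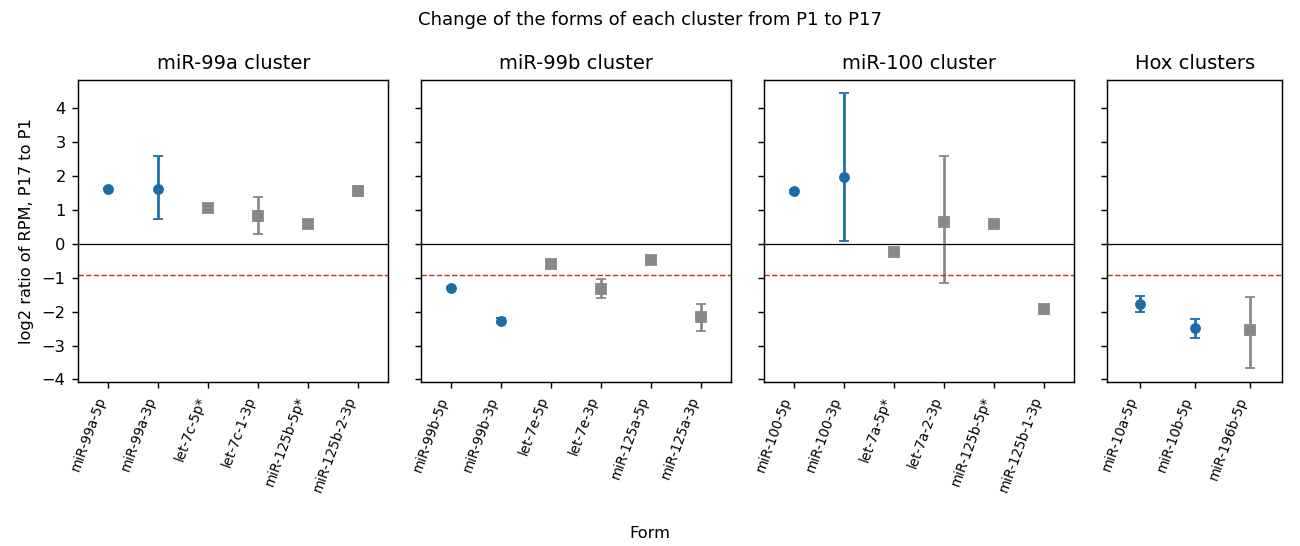
Log2 ratio of RPM at P17 to RPM at P1 for the forms of the miR-99a, miR-99b and miR-100 clusters and of the Hox clusters, with exact 95% intervals; blue circles are members, grey squares other forms, an asterisk marks a form made by more than 1 locus, and the dashed line is the median change of all 648 miRNAs, -0.91. In RPM all forms of the miR-99a cluster lie above 0. All of the miR-99b cluster lie below 0, as do 73.6% of the 648 miRNAs. In that cluster let-7e-5p and miR-125a-5p turn to 0.46 and 0.56 with median-of-ratios factors. In the miR-100 cluster miR-100-5p and miR-125b-1-3p lie on opposite sides.

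The other miRNAs of the Hox clusters were at or near the limit of detection after P1. With mmu-miR-10a-5p and mmu-miR-10b-5p, 3 of 11 listed Hox-cluster forms passed the filter. The third, miR-196b-5p, had 57, 6 and 10 reads, or 4.99, 0.47 and 0.86 RPM, and was 10.6-fold lower at P7 than at P1 (4.59 to 30.1). It passed the filter only through its P1 level, so its fall is a description and adds nothing to those of the miR-10 forms. miR-196a-5p and miR-615-3p had 4 reads each at P1 and 0 at P7 and P17, and 4 forms had 0 reads at every age, which allows levels up to those of 3 reads.

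By likeness of time course, the distance between the log2(RPM + 1) changes of both steps was taken over the 3 libraries. The miRNA closest to mmu-miR-10a-5p was miR-196b-5p, at a distance of 0.05, followed by miR-431-5p and miR-3963. The first place rests on 6 reads at P7 and on the pseudocount, since the RPM of miR-196b-5p fell 10.6-fold and that of mmu-miR-10a-5p 4.23-fold. For mmu-miR-99b-5p the closest were let-7e-3p, at 0.04 and from the same cluster, miR-155-5p and miR-98-5p. Its course was a common one, with 104 non-member miRNAs within a distance of 0.5, against 6 to 19 for the other 5p members. For mmu-miR-99a-5p the closest were miR-1264-3p and miR-547-3p, both with 30 reads or fewer in each library, and miR-146a-5p, which was measured at 55.3, 101 and 139 RPM. mmu-miR-100-5p was closest to miR-9769-3p, miR-144-3p and miR-668-3p, and mmu-miR-10b-5p to miR-92b-3p, miR-6540-3p and miR-33-5p. With 2 steps per miRNA such a distance is a description only. With median-of-ratios factors the 3 closest to mmu-miR-99a-5p were let-7b-5p, miR-146a-5p and miR-125b-2-3p, and those closest to mmu-miR-10a-5p were miR-3062-5p, miR-205-5p and miR-551b-5p, with 5, 4 and 4 reads at P7, none of them among its 3 closest in RPM.

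The tissue was checked against markers of retina and of neighbouring tissues, all of which had reads at every age. The 5 retina markers summed to between 223656 and 432211 RPM, the most of any list. Both endothelial markers, miR-126a-3p and miR-126a-5p, summed to 1261 (P1), 3643 (P7) and 8530 RPM (P17). The 2 mural-cell markers summed to 195, 376 and 1492 RPM. Both lists were thus higher at each later age, as was mmu-miR-99a-5p. The P7 level of mmu-miR-100-5p was only 1.07-fold that at P1, and its P17 level was higher. The retina markers miR-183-5p and miR-124-3p were also higher at each later age. Of the other retina markers, miR-182-5p and miR-96-5p were highest at P7, and miR-9-5p was lower at each later age. The 2 markers of pigment epithelium and ciliary body summed to 15211, 7226 and 14334 RPM, and the single liver marker to 5.78, 2.27 and 3.60 RPM, lowest at P7. The 6 blood markers summed to 169, 126 and 184 RPM, the 3 muscle markers to 132, 90.0 and 240 RPM and the 3 markers of surface epithelium and lens to 356, 269 and 645 RPM. The sums of these lists too were lowest at P7, the age at which mmu-miR-10a-5p had its lowest level, close to that at P17. For mmu-miR-10b-5p, at 10.3 RPM at P7 and 10.7 RPM at P17, counting error covers no change between these ages. Single markers did not all follow the sums. In blood, miR-451a and miR-486a-5p were lowest at P7, but miR-144-3p, miR-223-3p, miR-142a-3p and miR-150-5p were higher there than at P1. Of these, miR-144-3p, miR-223-3p and miR-150-5p had few reads at both ages. In muscle, miR-1a-3p and miR-133a-3p were lowest at P7 and miR-206-3p was highest. Within the last list the markers differed too. The lens marker miR-184-3p was higher at each later age (101, 119 and 569 RPM), miR-203-3p was lower (253, 150 and 75.7 RPM), and miR-205-5p, with 31, 4 and 8 reads, had the order of ages seen in mmu-miR-10a-5p. The part of these tissues in the members' levels was not tested. In whole retina, fewer cells of a type and less of a miRNA per cell cannot be told apart.

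**Figure D5:**
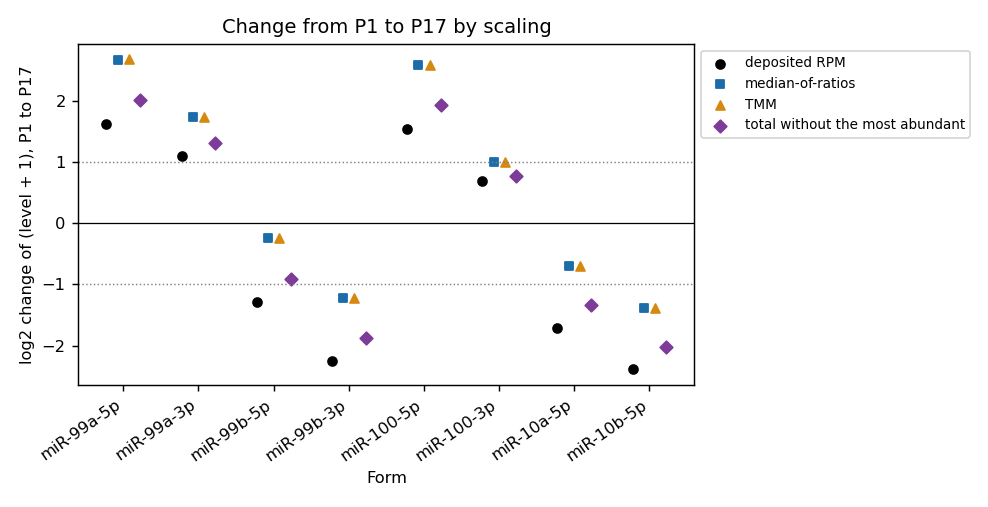
Log2 change of (level + 1) from P1 to P17 of the 8 forms under the deposited RPM, median-of-ratios factors, TMM factors and a total that leaves out the most abundant miRNAs; dotted lines mark the 2-fold criterion. Each form keeps its sign under the 4 scalings, but miR-99b-5p goes from -1.29 to -0.24 and miR-10a-5p from -1.71 to -0.69 with median-of-ratios factors, inside the criterion.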

How the data were processed

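Small RNA libraries of mouse retina, 1 pooled library for each of the 3 ages, were grouped by the age in the sample labels. The study's methods name HISAT2 at default parameters and the submitters' processing notes list BWA and FastQC, both with mm10. The miRNA annotation and the counting rule are not given in the sources used here. The authors deposited unnormalised read counts of 1915 mature miRNAs per library and RPM values, each the count divided by the summed miRNA counts of its library. These RPM values were used as deposited.

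Changes were computed as log2(RPM + 1) among miRNAs averaging 1 RPM or more, and a change over 2-fold was called. With 1 library per age no p-value was computed. Wilson intervals (95%) were used for RPM, and ratios were given exact binomial ones. Intervals for the change of a ratio were exact, or log-normal where every count was 2000 or more. Size factors were 1.50, 0.862 and 0.743 at P1, P7 and P17 over 644 miRNAs, and TMM factors were 1.60, 0.808 and 0.774. The alternatives were these scalings, a total that leaves out the miRNAs among the 10 most abundant of a library (13 in all), other pseudocounts, filters and fold criteria, the sum of forms that differ by 1 base, and 0.5 reads added to each form of a ratio. The named miRNAs were the members, their cluster partners, the Hox-cluster miRNAs, the tissue markers and the 3 miRNAs nearest in time course to each 5p member. Members and lists were chosen with earlier results of these data known. Sequences were taken from RefSeq and positions from GENCODE (GRCm38); 4 of 5 member hairpins were in the RefSeq table. Of the steps, only the calls over 2-fold and the exact intervals of a form's ratio between ages were tested on simulated data, with independent counts. TMM factors came from edgeR 4.0.16 in R 4.3.3, and the rest was run in Python 3.11.15 with pandas 2.3.3, numpy 2.4.6, matplotlib 3.10.9 and scipy 1.17.1.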

Additional observations from a re-analysis of the deposited data

How the results depend on the processing

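No paired analysis was possible because the ages had 1 library each, so animals, libraries and ages cannot be told apart. Forms under about 10 reads, among them mmu-miR-100-3p at P1 and P7, were not measured well enough to rank. The number of members over 2-fold higher from P1 to P7, 1 with RPM, was 3 with median-of-ratios factors, 3 with TMM factors, 2 without the most abundant miRNAs, 2 with a pseudocount of 0.1 RPM, 2 at a 1.5-fold criterion and 0 at 4-fold. Of all miRNAs tested, 3.09% were higher and 44.8% lower in this step with RPM. The number lower from P1 to P7, 3 with RPM, was 2 with median-of-ratios factors, 2 with TMM factors, 2 without the most abundant miRNAs, 2 at 4-fold and 4 at 1.5-fold. From P7 to P17 the number lower, 0 with RPM, was 1 without the most abundant miRNAs and 1 at 1.5-fold, and the number higher, 1 with RPM, was 0 at 4-fold. With RPM, 11.6% of all miRNAs tested were lower and 14.0% higher from P7 to P17. From P1 to P17 the number lower, 4 with RPM, was 2 with median-of-ratios factors, 2 with TMM factors and 2 at 4-fold, and the number higher, 3 with RPM, was 0 at 4-fold. The shares of all miRNAs moved as well. From P1 to P17, 46.8% were lower and 10.5% higher with RPM, against 23.9% and 25.5% with median-of-ratios factors. Shares under the other settings are not given here, so these counts show nothing particular to the members. The log2 change of the summed 5p level, with RPM 0.45 from P1 to P7, 0.46 from P7 to P17 and 0.91 from P1 to P17, was 1.41, 0.55 and 1.96 with median-of-ratios factors, 1.44, 0.52 and 1.96 with TMM factors, and 1.08, 0.22 and 1.29 without the most abundant miRNAs. Of 120 values of single members under another scaling or pseudocount, 49 moved beyond the counting interval and 3 had another sign: mmu-miR-99b-5p from P1 to P7, given above, and mmu-miR-10b-5p from P7 to P17, -0.17 without the most abundant miRNAs against 0.06. Summed, mmu-miR-99a-5p and mmu-miR-100-5p changed by 1.03, 0.59 and 1.62 on the log2 scale from P1 to P7, P7 to P17 and P1 to P17, and mmu-miR-10a-5p and mmu-miR-10b-5p by -2.26, 0.20 and -2.06. The 74 within-library ratios were recomputed with 0.5 reads added to each form only, and none moved beyond its interval. The cause of these differences was not tested.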

Other observations

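The 2 genes that make miR-125b, Mir125b-1 in the miR-100 cluster and Mir125b-2 in the miR-99a cluster, share a mature 5p form, but their 3p arms are counted apart, and these changed places. miR-125b-1-3p had 3493, 1358 and 933 reads in order of age, whereas miR-125b-2-3p had 493, 943 and 1472. The log2 ratio of the first to the second was 2.82 at P1, 0.53 at P7 and -0.66 at P17, a change of -3.48 (95% interval, counting error only, -3.67 to -3.30). This ratio is within a library and does not depend on the scaling.

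In the miR-99b cluster the 3p arm lost share in all 3 hairpins, not in miR-99b alone. The log2 ratio of the 5p to the 3p arm changed from P1 to P17 by 1.68 (1.30 to 2.09) for miR-125a and by 0.74 (0.46 to 1.02) for let-7e, at percentiles 92.1 and 71.6 of the 190 hairpins. The median change of these hairpins was 0.16, so this direction was common among them. From P1 to P7 the changes were 0.08 (-0.18 to 0.36) for miR-125a and 0.10 (-0.15 to 0.35) for let-7e, and counting error covers no change.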
